A study of Mus musculus with 36 samples.

Results

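The 10 genes described here form a set named neuronal cytoskeleton genes: Tubb3, Map2, Mapt, Nefl, Nefm, Nefh, Gap43, Stmn2, Nes and Vim. They were listed by name and matched to RefSeq genes of GRCm38.p6, the assembly behind mm10, and all 10 of 10 matched among 21887 protein-coding genes. Every deposited peak over a gene or the 5 kb on either side of it was taken, and each peak is called a region here. A region was placed at a gene end where it overlapped the 1 kb on either side of either annotated end, otherwise in the gene body, otherwise in the flank. The data are anti-HA ChIP-seq peak lists, in which DNA bound by an HA-tagged histone H4 is recovered and sequenced. Mouse embryonic stem cells stably expressed a PiggyBAC construct: an empty vector (EV), or histone H4 with a 3HA tag as wild type (H4WT_3HA) or with lysine 91 replaced by arginine (H4K91R_3HA) or by glutamine (H4K91Q_3HA). The labels of these 4 lines name no gene ablation and no differentiation, and they do not say whether a line is 1 clone. There is 1 library per group, so no difference between lists has a replicate check, and the exact (Clopper-Pearson) 95% intervals cover counting error only. The other 32 of 36 samples, neural cells among them, were not analysed here.

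Many of the genes are known as markers of neurons or of neural progenitors. Microtubules built from tubulin run through axons and dendrites, where MAP2 and tau bind and stabilise them and stathmins bind free tubulin. Neurofilaments are intermediate filaments that set axon calibre, whereas nestin and vimentin form the intermediate filaments of dividing progenitors. Histone H4 pairs with H3 in every nucleosome, and lysine 91 lies in the globular part of H4 where the H3-H4 tetramer meets H2A-H2B dimers. Peak lists hold no transcript levels, so the labelled cell type could not be checked against expressed markers, and nothing below says whether a gene was transcribed.

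RefSeq start positions and promoter sequences were in the table used here for 4 of the 10 genes, Tubb3, Map2, Nes and Vim, all on the plus strand. The bases just before the annotated start of each gene are shown because H4WT and H4K91R regions lay within 1 kb of all 4 starts. Regions do not cover every base shown, and the H4K91R region at Vim lies wholly past the stretch shown. Capitals mark CpG dinucleotides. The stretches are chr8:123411303-123411552 for Tubb3, chr1:66175079-66175201 for Map2, chr3:87970843-87971092 for Nes and chr2:13574061-13574310 for Vim, in GRCm38.p6.
Tubb3: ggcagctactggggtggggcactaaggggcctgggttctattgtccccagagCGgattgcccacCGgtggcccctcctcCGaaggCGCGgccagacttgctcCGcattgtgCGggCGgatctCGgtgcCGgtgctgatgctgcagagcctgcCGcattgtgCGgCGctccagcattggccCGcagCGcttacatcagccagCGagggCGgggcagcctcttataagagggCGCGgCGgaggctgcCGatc
Map2: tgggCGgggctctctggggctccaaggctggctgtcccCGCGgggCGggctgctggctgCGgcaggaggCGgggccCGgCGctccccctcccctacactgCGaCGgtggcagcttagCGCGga
Nes: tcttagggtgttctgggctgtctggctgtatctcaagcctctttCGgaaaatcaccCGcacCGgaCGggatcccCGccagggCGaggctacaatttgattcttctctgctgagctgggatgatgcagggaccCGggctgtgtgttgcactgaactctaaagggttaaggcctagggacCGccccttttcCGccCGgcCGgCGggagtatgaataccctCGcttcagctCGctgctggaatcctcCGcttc
Vim: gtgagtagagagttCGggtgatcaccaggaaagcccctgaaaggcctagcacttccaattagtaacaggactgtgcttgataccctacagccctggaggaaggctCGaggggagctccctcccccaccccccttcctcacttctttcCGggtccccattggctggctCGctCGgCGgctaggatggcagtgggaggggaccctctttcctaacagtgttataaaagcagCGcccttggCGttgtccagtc
The Map2 start in the table lies inside the annotated gene, so 123 bases precede the gene there and 250 at the others. CpG number differed between the 4 starts. Over the window of 300 bases around the start (250 before, 50 after), Map2 had 37 CpGs, Tubb3 26, Nes 18 and Vim 11. As many CpGs as at Map2 were found in 7.29% of 21263 such windows of protein-coding genes, and as many as at Vim in 54.7%. Across all windows, those overlapped by an H4WT region had a median of 24 CpGs (quartiles 17 and 32) and those not overlapped a median of 5 (2 and 14). For H4K91R the medians were 24 and 10. Nes thus lay below the median of overlapped windows of both lists. Vim lay below the median and the lower quartile of windows overlapped by H4WT. The Vim window was not overlapped by H4K91R, and its 11 CpGs were close to the median of 10 for such windows. The GC box (GGGCGG, both strands) occurred 5 times at Map2, 2 times at Tubb3 and 2 times at Nes, and 46.2% of all windows hold it. Vim was the 1 gene of the 4 with a TATA box (TATAAA), which 12.6% of windows hold. The left part of RE1, the site of the neuronal repressor REST (TTCAGCACC), was in none of the 4 windows and is in 0.414% of all windows. Its right part (GGACAG) occurred 1 time each at Tubb3 and Map2, against 22.3% of windows. An E-box (CANNTG), present in 69.0% of windows, was in none of the 4. Each GC box contains a CpG, the other motifs do not contain one another, and a match describes letters only.

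H4WT and H4K91R regions lay at or in every one of the 10 genes, and H4K91Q regions at 2. In the gene or its 5 kb flanks, H4WT held 10 of 10 genes, against 71.6% of protein-coding genes, and H4K91R also held 10 of 10, against 58.2%. The exact interval for 10 of 10 runs from 69.2% to 100%, which takes in the H4WT background and lies above the H4K91R background. With each tagged list limited to its 14314 regions of highest −log10 q, H4K91R held 6 of 10 genes (26.2% to 87.8%), against 28.7% of protein-coding genes, inside the interval. H4WT then held 8 of 10 (44.4% to 97.5%), against 41.1%, below the interval. H4K91Q held Nefm and Stmn2, 2 of 10 (2.52% to 55.6%), against 9.55% of protein-coding genes. The empty vector held Tubb3 alone, 1 of 10, against 8.96%. At gene ends H4WT and H4K91R held the same 8 genes, all except Mapt and Gap43 (80%, interval 44.4% to 97.5%). The background at gene ends was 58.9% for H4WT, inside that interval, and 38.3% for H4K91R, below it. At equal list length H4WT held the ends of 7 genes (34.8% to 93.3%), against 29.7%. H4K91R then held those of 5 (18.7% to 81.3%), against 14.2%. At that length the background lay below the interval for both lists. H4K91Q held the end of 1 gene, Nefm, against 1.29% of protein-coding genes, and the empty vector that of Tubb3, against 1.67%. At the start alone, H4WT and H4K91R each held all 4 genes with a known start, where 58.0% and 35.3% of 17492 protein-coding genes with a start were held. H4K91R held 2 of the 4, without Map2 and Vim, both at equal list length and among peaks of −log10 q 5 and above. H4K91Q and the empty vector held 0 of the 4, against 0.675% and 0.858%. The 10 genes were chosen by name with results of these data known, so these counts describe them and are no test.

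**Figure D1:**
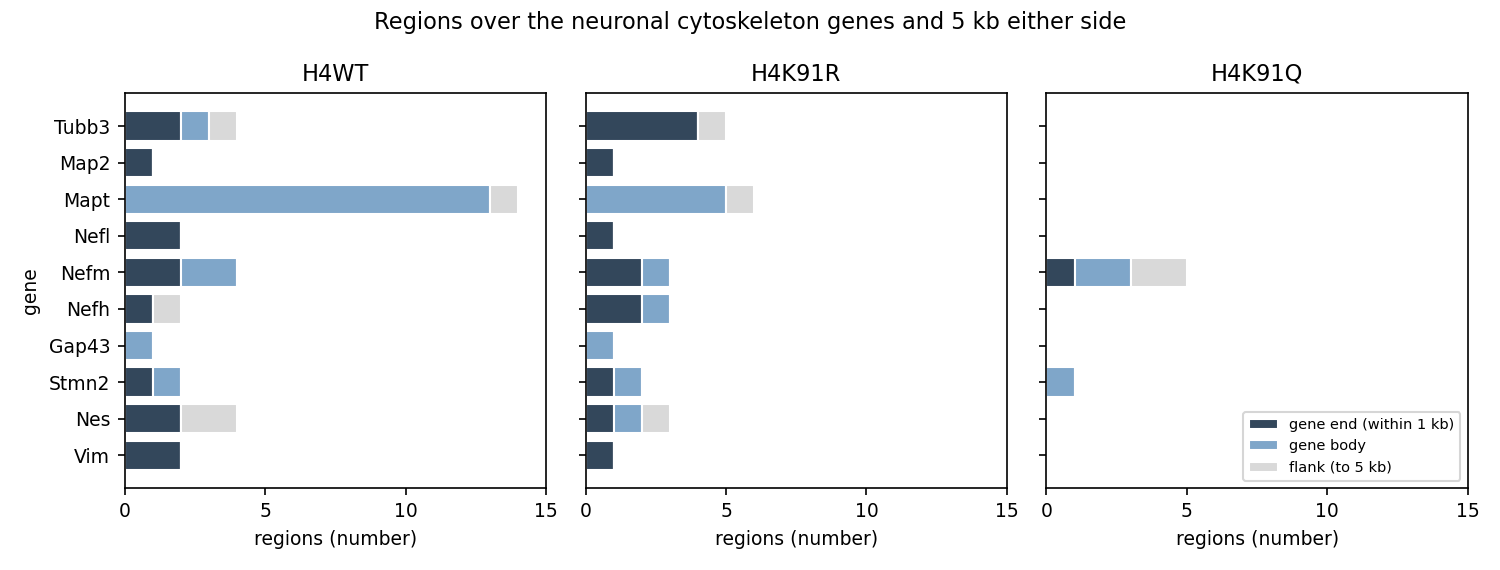
Number of regions (horizontal axis) over each gene (vertical axis) and 5 kb either side in the 3 tagged lists, 1 library each, divided by place: gene end within 1 kb, gene body, or flank. Mapt has the most H4WT regions, 14, with none at an end, and H4K91Q has 5 regions at Nefm, 1 at Stmn2 and 0 at the other 8 genes.

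H4WT had 36 regions over the 10 loci, H4K91R 26, H4K91Q 6 and the empty vector 1. Of the 36 H4WT regions, 13 lay at gene ends (36.1%, 20.8% to 53.8%), 18 in gene bodies and 5 in flanks. Of the 26 H4K91R regions, 13 lay at gene ends (50%, 29.9% to 70.1%), 10 in bodies and 3 in flanks. The same shares at gene ends over all protein-coding loci were 31.3% for H4WT and 30.0% for H4K91R, each counted per gene and region. Mapt alone gave 14 of the H4WT and 6 of the H4K91R regions, and without it H4WT had 22 and H4K91R 20. The intervals count regions as independent, which regions of the same gene need not be. List length can move with sequencing depth, which the lists do not give, so the numbers of regions are not compared between lists as amounts of histone.

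The genes are next described by role, with the authors' fold enrichment at the summit (a ratio to the caller's background). Fold is scaled within a library, so each region is placed by the percentage of regions of its own list that have a lower fold, called its percentile. Across the 10 loci the median percentile of regions was 57.9 in the H4WT list, 51.9 in the H4K91R list and 55.3 in the H4K91Q list, close to the middle of each list. Among the top 10% of their lists were 4 of the 36 H4WT regions, 5 of the 26 H4K91R regions and 1 of the 6 H4K91Q regions.

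Tubb3, the neuronal class III beta-tubulin, had regions at both ends. At its start H4WT had 1 region of 789 bp (chromosome 8, 123411194 to 123411982, fold 5.64, percentile 48.6) and H4K91R had 2 overlapping it. The H4K91R region across the start itself had fold 4.02 and percentile 4.98. The higher, with fold 7.34 and percentile 86.8, began 107 bp inside the gene. The other end ranked higher, with H4WT at fold 11.4 and percentile 97.7 (123420849 to 123421786) and H4K91R at fold 10.8 and percentile 96.9. This end was the 1 place among the 10 genes with an empty-vector region, of 335 bp, fold 4.35 and percentile 8.41 in its own list. That region lay wholly within both tagged regions, with summits 168 bp from the H4WT summit and 75 bp from the H4K91R summit. The tagged signal at the far end of Tubb3 therefore lies over pulldown background, and its share in the signal was not tested. Regions at the start overlapped no empty-vector region. The melanocortin receptor gene Mc1r ends within 1 kb of the Tubb3 start, so the start regions lie at an end of both genes. A flank region of H4WT (818 bp, percentile 82.5) lay at the other end of Mc1r, and an H4K91R region overlapping it (215 bp, percentile 19.7) lay in the body of Mc1r, so neither can be assigned to Tubb3. H4K91Q had no region at Tubb3 or within 5 kb, but 6 regions lay between 5 and 10 kb from the gene, all past its far end, with percentiles up to 77.9. H4WT and H4K91R each had 7 regions between 5 and 10 kb.

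Of the microtubule-associated genes, Map2 had its regions at the start, and those of Mapt lay more than 1 kb from either annotated end. The start of Mapt was not in the table used here, so its regions could not be placed against a start. Map2, which encodes a protein of dendritic microtubules, spans 267382 bp and had 1 H4WT region (chromosome 1, 66175035 to 66175665, fold 7.89, percentile 82.6) and 1 H4K91R region (66174958 to 66175627, fold 4.19, percentile 7.05). Both lay over the start shown above and overlapped for 593 bp, with summits 362 bp apart. No other region of any list lay in the gene or its flanks. Among 990 protein-coding genes of 200 kb or longer, the median was 4 H4WT regions, and 18.9% had 0 or 1. Map2 was thus in the sparser part of genes of its length, with all of its signal at the start.

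Mapt encodes tau, the microtubule-binding protein of axons. It spans 102682 bp and had no region of any list within 1 kb of either end, as for 29.4% of 2429 protein-coding genes of 100 kb or longer with H4WT and 51.0% with H4K91R. Inside the gene lay 13 H4WT regions, and 1 more in the flank. With 14 regions, Mapt was among the 8.23% of genes of 100 kb or longer with that many or more H4WT regions, where the median was 3. The highest was a pair close to the lower-coordinate end, starting 2019 bp and 2684 bp inside the gene. Their folds were 9.89 (percentile 94.4) and 11.5 (percentile 98.0), the latter the highest percentile of any H4WT region at the 10 genes. Neither overlapped an H4K91R region. H4K91R had 5 regions in the gene, of percentiles 1.84 to 76.5, and 1 in the flank. Of the 14 H4WT regions 3 overlapped an H4K91R region, starting 84507, 89686 and 105598 bp from the lower end, with summits 31, 1 and 85 bp apart. H4K91R had regions of its own starting 22586, 57659 and 99187 bp from the lower end. The flank pair lies inside the neighbouring gene Kansl1. H4WT and H4K91R thus met in the upper-coordinate part of Mapt and not at the H4WT regions of highest fold.

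Stmn2, a stathmin of growing neurons, was held near its lower-coordinate end by all 3 tagged histones. H4WT had regions of 298 bp (fold 5.68, percentile 49.1) and 565 bp (fold 6.09, percentile 58.6), starting 716 and 1605 bp inside the gene. H4K91R had 1 region over each, of 366 bp (fold 7.32, percentile 86.7) and 634 bp (fold 9.58, percentile 95.5). The H4K91Q region (chromosome 3, 8511174 to 8511774, 601 bp, fold 6.68, percentile 81.9) lay over the second of these alone, and 87.0% of it was covered by the H4WT region and as much by the H4K91R region. Its summit was 140 bp from that of H4WT and 83 bp from that of H4K91R. The remaining part of the gene, which spans 52078 bp, held no region of any list.

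**Figure D2:**
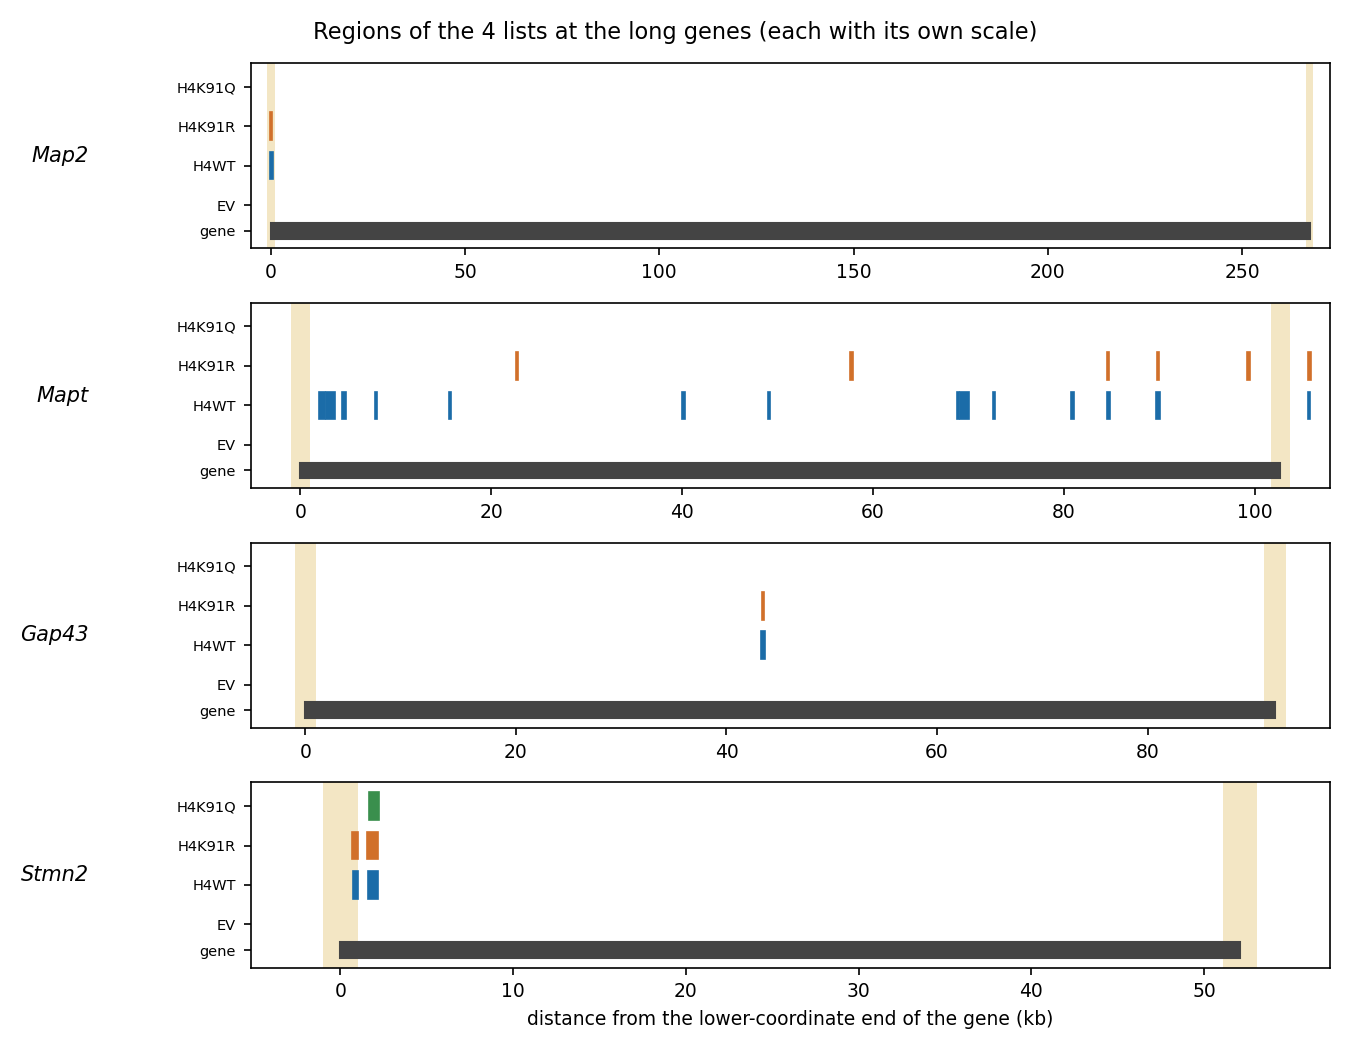
Regions of the empty vector (EV) and the 3 tagged lists along Map2, Mapt, Gap43 and Stmn2, as boxes against distance from the lower-coordinate end of each gene in kb. The dark bar is the gene, shading marks 1 kb around each end, each gene has its own scale and boxes carry a thin outline that widens them slightly. Map2 has regions at the start alone, Mapt has 13 H4WT regions inside and none at its ends, and the H4K91Q region at Stmn2 starts 1647 bp inside the gene.

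The 3 neurofilament genes differed from one another. Nefl, the light subunit, had 2 H4WT regions at its lower-coordinate end (fold 7.17 and 8.0, percentiles 75 and 83.8) and 1 H4K91R region of 1227 bp that overlapped both (chromosome 14, 68083730 to 68084956, fold 7.35, percentile 86.9). It had no H4K91Q region. Nefh, the heavy subunit, had an H4WT region of 1172 bp at its upper-coordinate end (chromosome 11, 4946990 to 4948161, fold 10.6, percentile 96.3). The 2 H4K91R regions inside it had folds of 5.26 and 4.13 and percentiles of 47.0 and 6.37. Ap1b1, an adaptor subunit gene, has an end there too, so these regions cannot be assigned to Nefh alone. A further H4K91R region (227 bp, percentile 44.1) lay in the body of Nefh. H4K91R thus ranked higher than the middle of its list at Nefl and not at Nefh.

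Nefm, the medium subunit, had the most H4K91Q regions of the 10 genes and the highest H4K91Q percentile. This gene of 5460 bp had 4 H4WT regions, 3 H4K91R regions and 5 H4K91Q regions. The H4WT regions had percentiles of 50.1, 58.6, 53.8 and 85.3 from the lower to the upper end, the last being 1726 bp wide over the upper end. H4K91R had a region of 961 bp near the lower end (fold 10.7, percentile 96.8), 1 of 248 bp (percentile 73.2) and 1 of 2182 bp over the upper end (fold 9.78, percentile 95.7). The highest H4K91Q region was 1688 bp wide (chromosome 14, 68120321 to 68122008, fold 9.91, percentile 97.1) and overlapped 3 H4WT regions and 2 H4K91R regions. In its list 98.8% of regions were narrower. Its summit lay 4 bp from that of the third H4WT region and 11 bp from that of the second H4K91R region, and 1103 bp from the summit of the stronger H4K91R region that it also overlapped. H4K91Q had 2 more regions in the gene, of 582 bp (percentile 47.0) and 255 bp (percentile 1.24), and 2 in the lower flank, of 396 bp and 199 bp, where neither H4WT nor H4K91R had a region. At the upper end, where H4WT and H4K91R had their widest regions, H4K91Q had no region within 1 kb. The 255 bp H4K91Q region lay wholly inside both of those widest regions, and it stopped 1190 bp before the end. The 1688 bp H4K91Q region counts as a gene-end region because its edge starts 776 bp inside the lower end, and its midpoint lies outside the 1 kb. In windows of 500 bp H4K91Q held 0 of the 10 gene ends.

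The covered share of the Nefm locus ranked high among protein-coding genes. Over the gene and its flanks H4WT regions covered 16.4% of the bases, those of H4K91R 21.9% and those of H4K91Q 20.2%. Of 21887 protein-coding genes, Nefm included, 1080 had as high a covered share for H4WT, 76 for H4K91R and 26 for H4K91Q. At Stmn2, the other gene with H4K91Q, the covered shares were 1.39%, 1.61% and 0.968%, of a window of 62078 bp against 15460 bp at Nefm. As high a share was found at 10582 genes for H4WT, 6784 for H4K91R and 1064 for H4K91Q, Stmn2 included. These ranks take no account of gene length. The neighbours Nefl and Nefm lie 30.4 kb apart, and the 20.4 kb between their flanks held no region of any list. The H4K91Q regions at Nefm thus did not extend to Nefl.

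**Figure D3:**
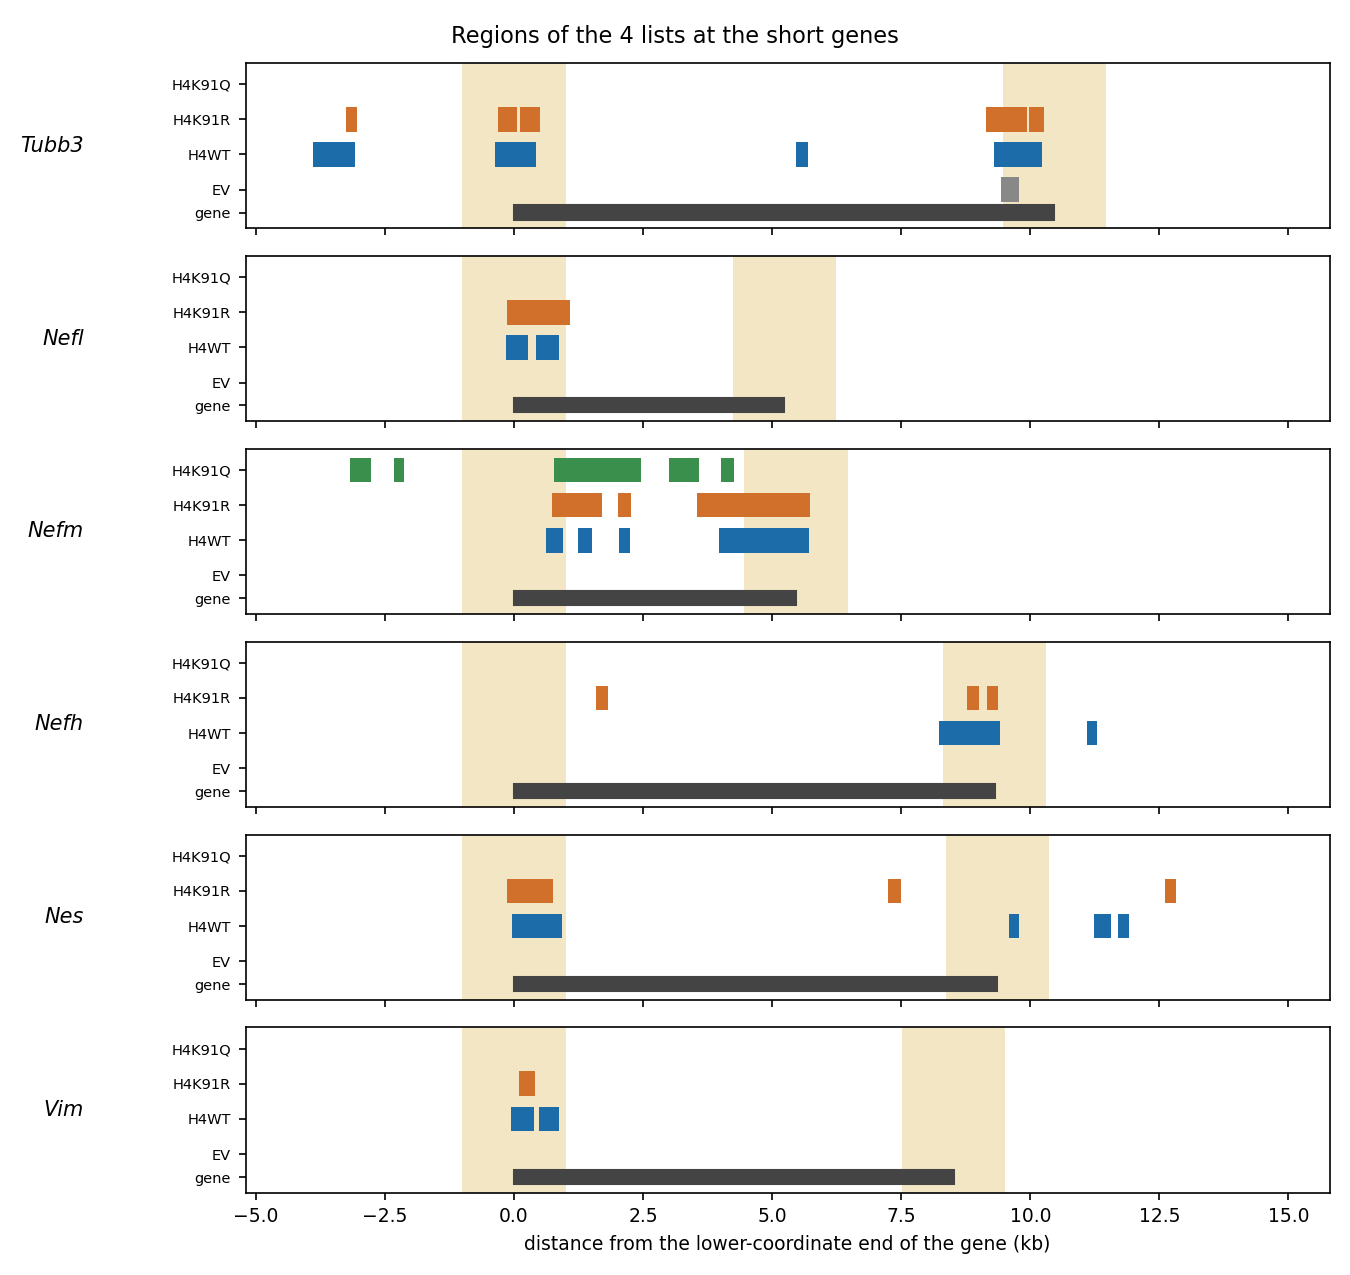
Regions of the empty vector (EV) and the 3 tagged lists along Tubb3, Nefl, Nefm, Nefh, Nes and Vim, as boxes against distance from the lower-coordinate end in kb, on 1 common scale. The dark bar is the gene and shading marks 1 kb around each end. H4K91Q appears at Nefm alone, with its widest region of 1688 bp, and the empty vector at the far end of Tubb3 alone.

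Gap43, a phosphoprotein of growth cones, had 1 H4WT region of 380 bp (chromosome 16, 42291789 to 42292168, fold 5.45, percentile 44.0) and 1 H4K91R region of 242 bp inside it (fold 5.91, percentile 67.1). They lay about in the middle of the gene of 92100 bp, with summits 147 bp apart. No region of any list lay at its ends, as with Mapt. Gap43 and Map2 shared the lowest number of H4WT regions among the 10, at 0.0979 and 0.0361 per 10 kb, against a median of 0.370 over all protein-coding genes. Long genes have lower values in general: among 4945 genes of 50 kb or longer the median was 0.182.

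The progenitor intermediate filament genes Nes and Vim both had their highest regions at the start. Nestin (Nes) had an H4WT region of 964 bp (chromosome 3, 87971058 to 87972021, fold 8.37, percentile 86.4) and an H4K91R region of 882 bp (87970958 to 87971839, fold 9.17, percentile 94.6). They overlapped for 782 bp with summits 5 bp apart, the closest match at the 4 known starts. At the other end and in the flank of Nes the lists parted: H4WT had 3 regions there with percentiles of 23.7, 64.3 and 2.51, H4K91R had 2 in the body and flank with percentiles of 16 and 47.9, and none overlapped. Vimentin (Vim) had 2 H4WT regions (chromosome 2, 13574254 to 13574692, fold 8.58, percentile 87.9, and 13574797 to 13575186, fold 6.42, percentile 64.1). H4K91R had 1 region, of 317 bp (fold 5.31, percentile 51.4), over the first of them, 89 bp from its summit. That region began after the sequence window of the Vim start, so Vim was the 1 gene of the 4 whose window of 300 bases overlapped H4WT and not H4K91R. Neither gene had H4K91Q.

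**Figure D4:**
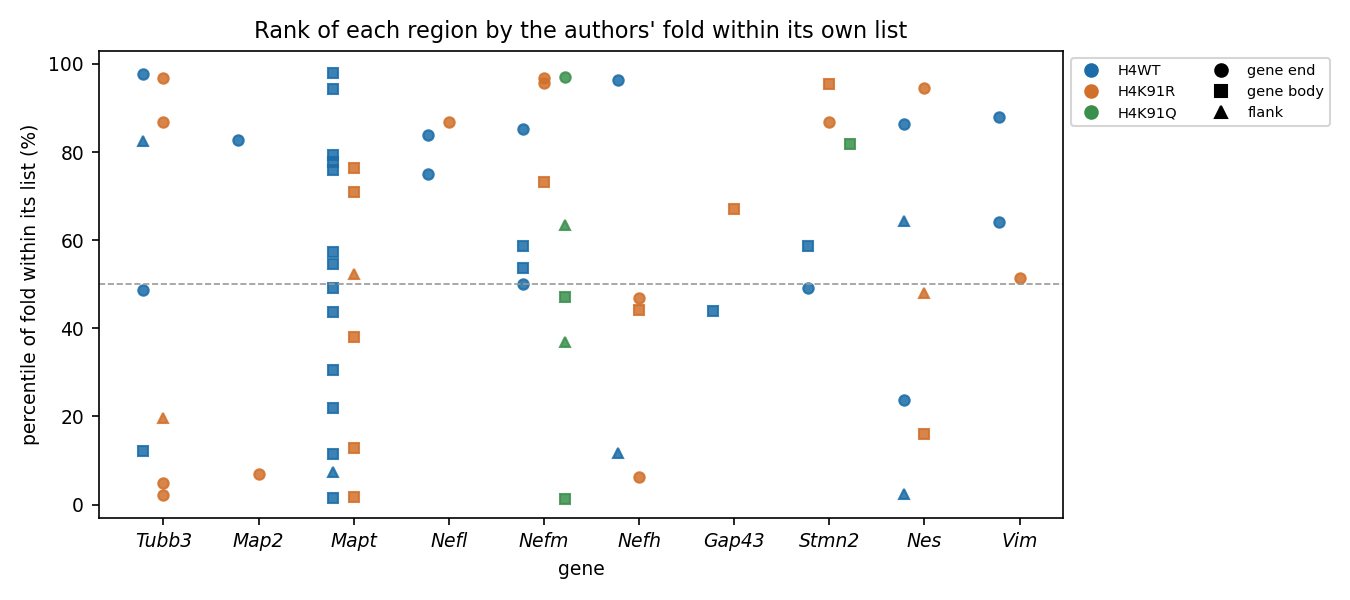
Percentile of the authors' fold within its own list (vertical axis, %) for every tagged region over the 10 genes (horizontal axis), coloured by list, with circles for gene ends, squares for gene bodies and triangles for flanks. The dashed line marks the middle of a list. The points spread over the whole range, the highest being H4WT in Mapt at 98.0, H4WT at Tubb3 at 97.7 and H4K91Q at Nefm at 97.1.

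Merging overlapping tagged regions gave 41 places over the 10 genes. H4WT and H4K91R shared 13 of them without H4K91Q, 8 of these at gene ends. All 3 tagged histones met at 3 places, 2 in Nefm and 1 in Stmn2. At the upper of the places in Nefm, H4K91Q had its 255 bp region of percentile 1.24. Its 582 bp region there met H4K91R over 31 bp. H4WT alone held 17 places, 12 of them in gene bodies and 2 at gene ends, H4K91R alone held 6, none at a gene end, and H4K91Q alone held 2, both in the flank of Nefm. Mapt held 16 of the 21 places in gene bodies and 11 of the 12 that H4WT alone held there.

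By region, 19 of 36 H4WT regions overlapped an H4K91R region (52.8%, 35.5% to 69.6%) and 20 of 26 H4K91R regions an H4WT region (76.9%, 56.4% to 91%). Over all regions at protein-coding genes these shares were 38.9% and 67.1%, both inside the intervals. H4K91Q was met by 5 of the 36 H4WT regions (13.9%, 4.67% to 29.5%), 4 of them in Nefm, against 2.09% over protein-coding genes. In Nefm 3 of these met the same H4K91Q region, of 1688 bp. All intervals of this paragraph count regions as independent, so no excess over 2.09% is read from this one. Of the 26 H4K91R regions, 4 met H4K91Q (15.4%, 4.36% to 34.9%), against 7.86%, inside the interval. Of the 6 H4K91Q regions, 3 overlapped H4WT (50%, 11.8% to 88.2%) and 4 overlapped H4K91R (66.7%, 22.3% to 95.7%), against 25.8% and 60% over protein-coding genes, both inside the intervals. Where H4WT and H4K91R regions overlapped, in 22 pairs, summits lay 1 to 571 bp apart with a median of 185 bp, and 11 pairs were within 200 bp. Empty-vector regions were overlapped by 1 H4WT and 1 H4K91R region, both at the far end of Tubb3, and by no H4K91Q region. Over all regions at protein-coding genes, 2.94% of H4WT, 2.83% of H4K91R and 0.897% of H4K91Q regions overlapped the empty vector, each inside the interval for the 10 genes.

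The other 42 cytoskeleton genes, listed by role, resembled the 10 in H4WT and H4K91R. H4WT held the ends of 35 (83.3%, 68.6% to 93.0%), against 58.9% of protein-coding genes. H4K91R held those of 29 (69.0%, 52.9% to 82.4%), against 38.3%. H4K91Q held the end of none (0%, up to 8.41%), against 1.29% of protein-coding genes. In the gene or flanks H4K91Q had a region at 2 (4.76%), against 9.55%. These were the kinesin gene Kif1a and the spectrin gene Sptbn4. By role, H4WT held the ends of 9 of 11 tubulin genes, 8 of 10 microtubule-associated genes, 2 of 3 stathmin genes, 5 of 6 intermediate filament genes, 7 of 8 growth cone and membrane skeleton genes and 4 of 4 kinesin genes. H4K91R held 6, 7, 3, 6, 4 and 3 of them in the same order. The highest H4WT folds at gene ends were at the desmin gene Des (13.6), the tubulin gene Tubb6 (13.4) and the syncoilin gene Sync (12.9), each with an H4K91R region as well. H4K91R held an end without H4WT at 3 genes: Tubb2b (fold 5.67), the stathmin gene Stmn4 (5.75) and the peripheral neuron filament gene Prph (4.47).

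Compared with other neural genes, the 10 were held at gene ends by H4WT about as often. H4WT held the ends of 10 of 12 synaptic vesicle and transporter genes (83.3%) and 11 of 14 early neural transcription factor genes (78.6%), beside 8 of the 10. H4K91R held 7 of 12 (58.3%, 27.7% to 84.8%) and 11 of 14 (78.6%, 49.2% to 95.3%), and the interval of the 10 overlaps both. Over all protein-coding genes the shares at gene ends were 58.9% for H4WT and 38.3% for H4K91R. The highest H4WT folds at gene ends included those at Stx1a (11.7) and Slc17a7 (11.5), genes of transmitter release, and among early neural factors at Zic2 (13.1), Sox1 (12.8) and Lhx2 (12.7). H4K91Q had regions in or beside Stx1a, Syt1 and Vamp2 of the synaptic list, all away from gene ends. These are 3 of 12 (25%, 5.49% to 57.2%), against 9.55% of protein-coding genes, inside the interval, and beside 2 of the 10. Among the early factors H4K91Q held the end of Pou3f2, with a fold of 4.11. This is 1 of 14 (7.14%, 0.181% to 33.9%), against 1.29% of protein-coding genes, inside the interval. None of these differences between gene groups was tested.

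**Figure D5:**
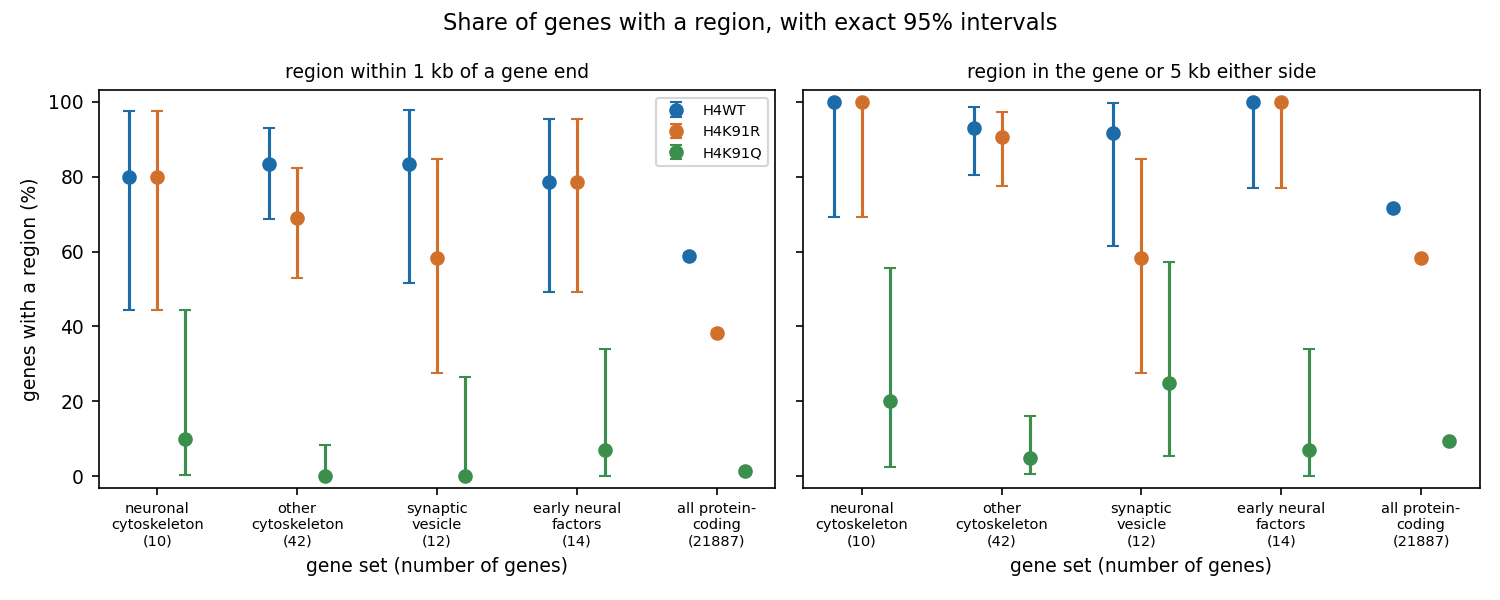
Share of genes (vertical axis, %) with a region within 1 kb of a gene end (left) and in the gene or 5 kb either side (right) for 5 gene groups, with the number of genes in brackets. Points are shares in 1 library per list and bars are exact 95% intervals. At gene ends the 10 neuronal cytoskeleton genes are at 80% for H4WT and H4K91R and at 10% for H4K91Q, and the intervals of the 4 small groups overlap one another.

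Genes of most similar pattern were looked for over the 3 tagged lists, as the smallest distance between percentiles of the highest region in the gene or its flanks. For Nefm these were Alox15, Dmac2l and Abcc4, at distances of 2.26, 2.60 and 2.62 percentile points. For Stmn2 they were Lcorl, Pdzrn4 and Iars2, at 1.16, 3.68 and 6.38. The measure rests on 3 values per gene, and nothing about shared function follows from it.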

How the data were processed

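Anti-HA ChIP-seq peak lists of 4 embryonic stem cell pulldowns were used, grouped by sample title. Per the submitters' processing notes, the authors called peaks with MACS2 on mm10, and the deposited peak names show each pulldown called alone against its own input. For the aligner, the MACS2 version and the q cutoff, the sources used here give nothing. The authors' fold enrichment, a ratio, and their deposited score (10 times the −log10 q, rounded down, in 100% of peaks) were taken as they stand, the score unused. Their deposited −log10 q served for shortened lists, and the −log10 p was not used. Read depth is unknown: the lists hold no counts of reads.

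Genes and their ends came from RefSeq (GRCm38.p6), whose gene table has no strand. Start positions came from the promoter table, which lists 4 of the 10 genes. The planned count at starts therefore covers 4 genes. Overlap of 1 bp sufficed. Work was done in Python 3.11.15 (numpy 2.4.6, pandas 2.3.3, scipy 1.17.1). Placement was tested on simulated data, where 100% of 1500 planted regions were recovered. All 10 genes are named, and from the other lists genes with H4K91Q, those with a mutant and no H4WT region at an end, and the 3 of highest H4WT fold. A gene that this rule takes is not reported here. The genes and lists were chosen with earlier results of these data known. No test between groups was made. Gene length classes and the interval between Nefl and Nefm were looked at after the data were seen.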

Additional observations from a re-analysis of the deposited data

How the results depend on the processing

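No paired analysis was possible because each group has 1 library and no result comes from a test, and for the same reason no replicate could be left out. Of 126 alternative values, 108 stayed within 1.5 times the count, or within the interval of the share, and 18 moved. With tagged lists of equal length (14314 regions), H4K91R held 6 of 10 genes in the gene or flanks, 5 at a gene end and 2 of 4 at the start. The 6 genes (26.2% to 87.8%) compare with 28.7% of protein-coding genes, inside the interval. The 5 gene ends (18.7% to 81.3%) compare with 14.2% of protein-coding genes, below the interval. For H4WT the 7 gene ends (34.8% to 93.3%) compare with 29.7%, also below the interval. Those lists had 11 H4WT and 10 H4K91R regions over the loci, 63.6% of the H4WT regions at gene ends, and 40% of the H4K91R regions overlapping H4WT and 40% overlapping H4K91Q. Among peaks of −log10 q 5 and above, H4K91R had 13 regions, held 2 of 4 starts and 6 gene ends (background 25.2%), and 92.3% of its regions overlapped H4WT. Map2 and Vim lost their H4K91R regions under both settings. For H4K91Q, gene-end counts changed with the window: 0 genes and 0% of regions with ends of 500 bp, likewise 0 and 0% with the midpoint in the window, and 2 genes and 66.7% with ends of 2 kb, where Stmn2 joined Nefm. A flank of 10 kb gave 12 H4K91Q regions, the added 6 all beside Tubb3. Leaving out regions that overlap the empty vector moved none of these results. Depth is unknown, and it limits every count of absent regions: a gene without a region in a list was not detected at that depth and threshold.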
